A study of Sus scrofa with 21 samples.

Results

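S100G and STC1 are genes of calcium handling, and every probe of the array whose RefSeq accession belongs to pig S100G (gene ID 397265) or pig STC1 (gene ID 100125345) was taken, which gave 3 probes of the 43603 measured and 2 genes of the 2389 that could be named. S100G had probes A_72_P088751 and A_72_P701142, and STC1 had probe A_72_P077311. RNA was measured on 21 single-colour Agilent porcine arrays, 3 in each of 7 groups of endometrium, the lining of the uterus, from Large White sows. The pregnant groups came from 9 sows, 3 killed on each of days 13, 18 and 24 after insemination, each sampled at a site where a conceptus was attached (attachment site) and between such sites (inter-site). The non-pregnant group came from 3 sows that had been inseminated with inactivated sperm and were killed on day 13. The labels do not say which arrays share a sow, and the tissue is bulk, so fewer cells of a type and less RNA per cell cannot be told apart.

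S100G encodes calbindin-D9k, a small cytosolic protein that binds calcium and carries it across absorptive epithelium, known from intestine, kidney, placenta and uterus. STC1 encodes stanniocalcin 1, a secreted glycoprotein hormone that was found in fish, where it limits calcium uptake at the gill, and that acts mostly as a local signal in mammals. Both are known as products of the uterine epithelium in the pig, where the uterus delivers calcium to the conceptus before and during implantation.

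Every level below is the log2 processed signal of a probe relative to the 75th percentile of its own array, so a level of 0 marks that percentile, and levels of different probes are not set against each other. The share of probes well above background was 62.3% to 77.1% per array, and 0 spots were saturated. Libraries were compared over all probes before the results: inter-site day 24 replicate 3 was closest to non-pregnant replicate 3 (r = 0.986, against at most 0.960 with its own group). Replicate numbers follow the scanner files, from which the authors' deposited value table differs for inter-site day 24 replicates 2 and 3. Inter-site day 13 replicate 1 was closest to inter-site day 24 replicate 3 (r = 0.977, against 0.953 to 0.964 with its own group). Several other libraries were also closest to an array of another group. Among them, attachment day 18 replicate 2 was closest to non-pregnant replicate 1 (r = 0.968, against 0.962 to 0.964 with its own group). The progesterone receptor PGR, which falls in the endometrial epithelium of early pregnancy, was at 3.04 in inter-site day 24 replicate 3 and 2.16 in inter-site day 13 replicate 1, against 0.77 to 1.39 in the other 16 arrays of pregnant sows and 3.01 to 3.44 in those of non-pregnant sows.

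S100G was well above background on all 21 arrays and ranged over 7.90 log2 units, with its lowest levels on day 18 at both kinds of site. On day 13 it stood at 1.76, 0.91 and 1.93 in the attachment sites and at 2.67, 1.43 and 2.19 in the inter-sites. On day 18 it stood at -0.37, -1.02 and -0.63 in the attachment sites and at -0.05, -1.59 and -2.62 in the inter-sites. All 6 arrays of day 18 lay below all 12 arrays of days 13 and 24. The share of all probes with this separation was not counted, and the shares for pairs of groups are given below. On day 24 it stood at 1.75, 2.07 and 4.22 in the attachment sites and at 2.37, 2.07 and 5.29 in the inter-sites. The non-pregnant arrays spread from low to high, at -0.24, 0.64 and 5.23. The arrays at 5.29 and 5.23 are inter-site day 24 replicate 3 and non-pregnant replicate 3, the pair that were closest to each other over all probes.

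Group means of S100G, with the SD over 3 arrays, were 3.24 ± 1.78 in inter-sites of day 24, 2.68 ± 1.34 in attachment sites of day 24, 2.10 ± 0.63 in inter-sites of day 13 and 1.53 ± 0.54 in attachment sites of day 13. They were -0.68 ± 0.33 in attachment sites of day 18, -1.42 ± 1.30 in inter-sites of day 18 and 1.88 ± 2.94 in non-pregnant endometrium. In the order from highest to lowest (inter-site day 24, attachment day 24, inter-site day 13, non-pregnant, attachment day 13, attachment day 18, inter-site day 18), only attachment sites of day 13 and of day 18 were neighbours whose arrays did not overlap. The order depended on single arrays. Without its replicate 3, inter-site day 24 had a mean of 2.22 (n = 2), below attachment day 24. Non-pregnant endometrium without its replicate 3 had a mean of 0.20 (n = 2), below attachment day 13. The second probe followed the first (r = 0.999 over 21 arrays of the same RNA), with differences of 0.22 to 0.72 between them.

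**Figure D1:**
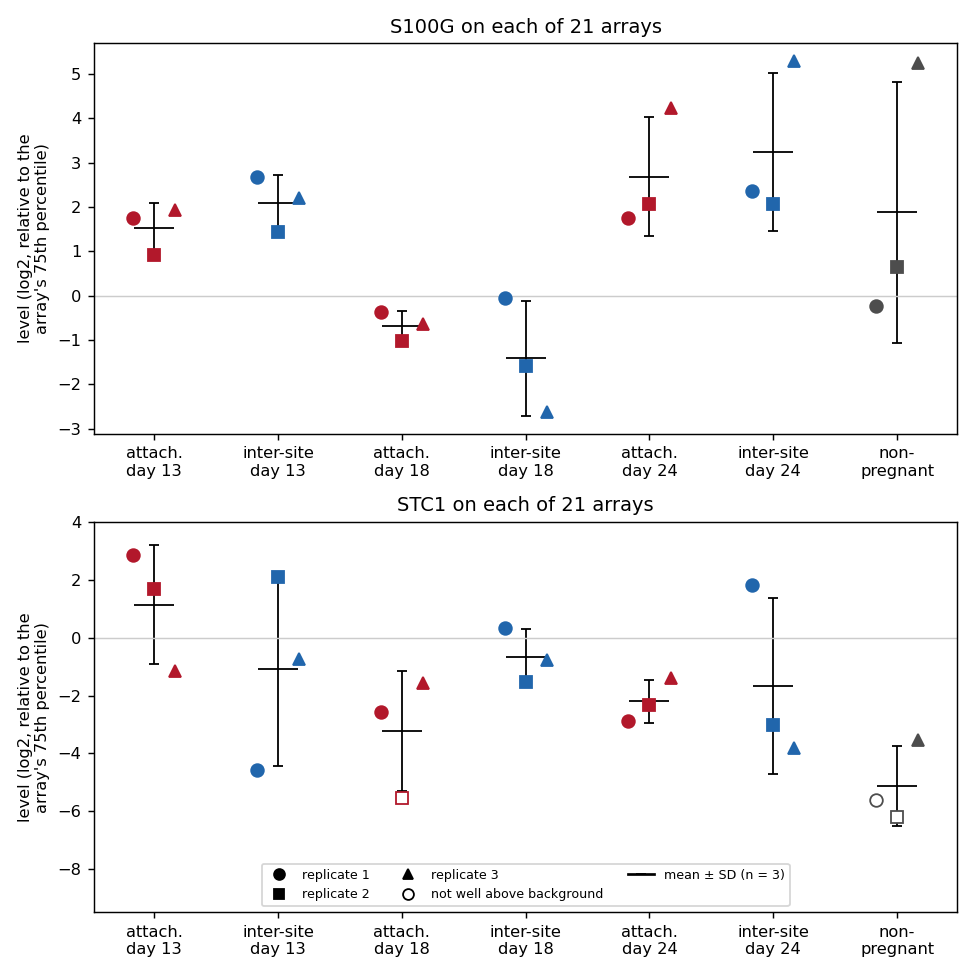
Levels of S100G (top) and STC1 (bottom) on each of 21 arrays, as log2 signal relative to the 75th percentile of the array, by group. Symbols give the replicate number, open symbols mark a spot not well above background, and bars are the mean ± SD of 3 arrays; S100G on day 18 lies below 0 on all 6 arrays, and STC1 in non-pregnant endometrium lies at or below -3.55 on all 3.

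STC1 was well above background on 18 of 21 arrays and ranged over 9.07 log2 units, with its highest mean at attachment sites of day 13 and its lowest in non-pregnant endometrium. On day 13 it stood at 2.86, 1.69 and -1.13 in the attachment sites and at -4.59, 2.09 and -0.73 in the inter-sites. The level of -4.59 belongs to inter-site day 13 replicate 1, which stood at -0.79 with normexp background correction. On day 18 it stood at -2.56, -5.54 and -1.56 in the attachment sites, where the array at -5.54 was not well above background, and at 0.34, -1.55 and -0.76 in the inter-sites. The attachment sites lay just below the inter-sites on this day, by the narrow gap between -1.56 and -1.55. On day 24 it stood at -2.87, -2.32 and -1.41 in the attachment sites and at 1.83, -3.03 and -3.82 in the inter-sites. The non-pregnant arrays were at -5.61, -6.21 and -3.55, and only the last was well above background.

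Group means of STC1 were 1.14 ± 2.05 in attachment sites of day 13, -0.65 ± 0.95 in inter-sites of day 18, -1.07 ± 3.35 in inter-sites of day 13 and -1.67 ± 3.05 in inter-sites of day 24 (SD, n = 3). They were -2.20 ± 0.74 in attachment sites of day 24, -3.22 ± 2.07 in attachment sites of day 18 and -5.12 ± 1.39 in non-pregnant endometrium. In this order, which runs from highest to lowest, the arrays of every pair of neighbouring groups overlapped. This order too depended on single arrays. Inter-site day 13 without its replicate 1 had a mean of 0.68, and inter-site day 24 without its replicate 3 one of -0.60 (n = 2 each). Both lie above the mean of inter-sites of day 18. Over all pairs of groups, the arrays did not overlap in 6 of 21 pairs for STC1 and in 10 of 21 for S100G, where the median tested probe had 4 such pairs and the quartiles were 2 and 7.

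Both genes varied more between arrays of a group than most probes did. The pooled SD within groups was 1.51 for S100G and 2.15 for STC1, at the 98.3rd and 99.5th percentile of the tested probes, whose median was 0.42. For S100G the non-pregnant group had an SD of 2.94, and of 0.63 over the 2 arrays without replicate 3. For STC1 the spread includes arrays not well above background. Its levels ran from -6.21 to 2.86, and from -2.69 to 2.67 with normexp background correction. The comparisons below therefore rest on wide intervals. Groups were compared with limma over all 30089 tested probes, and a probe was called at a Benjamini-Hochberg adjusted p under 0.05. Neither gene was called in any of the 12 comparisons, while each had an unadjusted p under 0.05 in 3 of them. Over all probes, 14.8% of the tests in these comparisons had an unadjusted p under 0.05 and 2.17% were called.

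On day 13, pregnancy was compared at each kind of site. At attachment sites STC1 was above non-pregnant endometrium on all arrays, by 6.26 log2 units (SE 1.61, 95% interval from 2.85, limma adjusted p = 0.0560), a fitted ratio of 76.7. The arrays of the groups did not overlap, as for 14.3% of all tested probes in this direction. Since 2 of the 3 non-pregnant arrays were not well above background, the size of this ratio depends on the background treatment: with normexp background correction the difference was 3.20 (limma adjusted p = 0.214). S100G differed by -0.34 (SE 1.14, limma adjusted p = 0.900) with overlapping arrays, and by 1.33 without non-pregnant replicate 3. Of the 2 genes, 0 were called, against 1.78% of all probes.

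At inter-sites of day 13, STC1 differed from non-pregnant endometrium by 4.05 (SE 1.61, limma adjusted p = 0.213), and the arrays overlapped because replicate 1 stood at -4.59. With normexp background correction the difference was 2.31 (limma adjusted p = 0.525). Replicate 1 then stood at -0.79, above the non-pregnant arrays at -2.66, -2.69 and -1.21. The overlap thus depended on the background treatment. Without inter-site day 13 replicate 1 and inter-site day 24 replicate 3, the difference was 5.80 (limma adjusted p = 0.0451). The one at attachment sites was the same 6.26 with a limma adjusted p of 0.0137. S100G differed by 0.22 (SE 1.14, limma adjusted p = 0.942), and by -0.84 to 1.89 when 1 library was left out, highest without non-pregnant replicate 3. Of the 2 genes, 0 were called with all arrays, against 0.452% of all probes. The comparisons at both kinds of site share the non-pregnant arrays.

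Within the slides that held arrays of both groups, STC1 was 9.07 and 2.42 higher in attachment sites and 5.64 and 1.02 higher in inter-sites than on the non-pregnant array of the slide. The values of 9.07 and 1.02 are set against non-pregnant arrays on which STC1 was not well above background, so they are not measured sizes. For S100G the differences within slides had both signs, 1.11 and -3.30 at attachment sites and -3.81 and 2.91 at inter-sites. Both negative values belong to the slide that holds non-pregnant replicate 3.

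**Figure D2:**
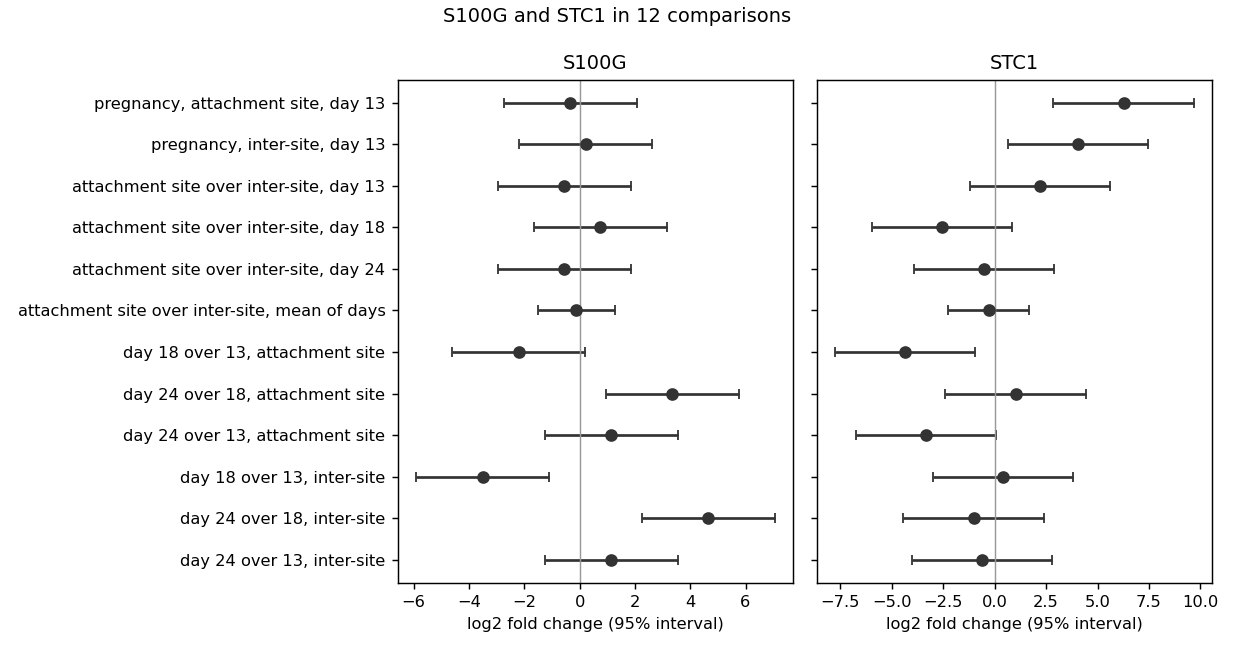
Log2 fold changes of S100G (left) and STC1 (right) in the 12 comparisons, named down the page, with the 95% interval from limma, not adjusted for the number of probes. The interval of STC1 for pregnancy at attachment sites starts at 2.85 and that of S100G for day 24 over day 18 at inter-sites at 2.25; no adjusted p was under 0.05.

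Across days, S100G had its largest differences between days 18 and 24. At attachment sites it was 3.36 higher on day 24 than on day 18 (SE 1.14, limma adjusted p = 0.0894), a ratio of 10.2. The arrays of the days did not overlap, as for 15.2% of all probes in this direction. At inter-sites it was 4.66 higher (SE 1.14, limma adjusted p = 0.0890), a ratio of 25.3, again without overlap, as for 11.5% of all probes. Of the 2 genes, 0 were called, against 5.62% of all probes at attachment sites and 0.143% at inter-sites. The same difference stood at 5.05 within the single slide that held both days at attachment sites, and at 3.66 and 2.41 within slides at inter-sites.

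Between days 13 and 18, S100G was lower on day 18 at attachment sites (log2 fold change -2.21, SE 1.14, limma adjusted p = 0.273) and at inter-sites (log2 fold change -3.51, SE 1.14, limma adjusted p = 0.789). Neither pair of groups overlapped, as for 12.6% of all probes at attachment sites and 5.93% at inter-sites in this direction. Of the 2 genes, 0 were called, against 1.8% and 0.00665% of all probes. Day 24 against day 13 gave S100G differences of 1.15 at attachment sites (limma adjusted p = 0.545) and 1.15 at inter-sites (limma adjusted p = 0.688), with arrays that overlapped. Comparisons of days share the arrays of the day between them, so they are not independent of each other.

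STC1 followed another order over the days. At attachment sites it was lower on day 18 than on day 13 (log2 fold change -4.36, SE 1.61, limma adjusted p = 0.138) and lower on day 24 than on day 13 (log2 fold change -3.34, SE 1.61, limma adjusted p = 0.174). In both, the arrays did not overlap, as for 12.6% and 22.3% of all probes in this direction. With normexp background correction these differences from day 13 were -2.91 and -2.455. Day 24 against day 18 differed by 1.02 (limma adjusted p = 0.741), with overlapping arrays, and by -0.14 without attachment day 18 replicate 2. At inter-sites the differences were 0.42 for day 18 over 13, -1.02 for day 24 over 18 and -0.60 for day 24 over 13 (limma adjusted p from 0.839 to 0.982), and the arrays of all 3 pairs overlapped. Each of these signs turned when 1 library was left out, to -1.33 without inter-site day 13 replicate 1, to 0.05 without inter-site day 24 replicate 3 and to 0.99 at most for day 24 over 13. Within slides the differences were 4.93 for day 18 over 13, -1.48 and 1.48 for day 24 over 18 and 6.41 for day 24 over 13. The values of 4.93 and 6.41 are both set against inter-site day 13 replicate 1, at -4.59. Day 24 against day 13 called 0 of the 2 genes, against 15.7% of all probes at attachment sites and 0.246% at inter-sites.

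Attachment sites were set against inter-sites of the same day. S100G differed by -0.56 on day 13, 0.74 on day 18 and -0.56 on day 24 (limma adjusted p from 0.867 to 0.983), and its arrays overlapped on each day. Each of these directions turned in another setting: with slide as a fixed block the difference was 0.21 on day 13 and -1.47 on day 18, and without inter-site day 24 replicate 3 it was 0.46 on day 24. Within slides it was 0.50 on day 13, and -1.07 and -0.00159 on day 24. Over the mean of days the difference was -0.13, with a 95% interval from -1.52 to 1.26. STC1 differed by 2.21 on day 13, -2.56 on day 18 and -0.53 on day 24 (limma adjusted p from 0.623 to 0.981), and by -0.29 over the mean of days, with an interval from -2.26 to 1.68. With 1 library left out, the STC1 difference was 0.46 to 3.80 on day 13, -3.39 to -1.40 on day 18 and -1.60 to 1.22 on day 24. With normexp background correction the STC1 difference on day 18 was -1.33. Within slides it was -3.23 on day 13, and 2.41 and 0.71 on day 24. Only its day 18 arrays did not overlap, as for 3.08% of all probes in this direction, and in the authors' deposited value table they overlapped, at 7.36 in attachment site replicate 3 and 7.23 in inter-site replicate 2. Of the 2 genes, 0 were called, against 0.0% of all probes on days 13 and 18, 0.279% on day 24 and 0.00332% over the mean of days.

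Whether the site difference itself differed between days was tested as well. For STC1 the difference on day 18 minus that on day 13 was -4.78 (SE 2.28, limma adjusted p = 0.599). Its size depends on the background treatment, since attachment day 18 replicate 2 was not well above background. With normexp background correction it was -2.23. For S100G the same test gave 1.30 (SE 1.61, limma adjusted p = 0.796). The 3 such tests called 0 of the 2 genes, also at an unadjusted p under 0.05, against 0.0% of all probes for day 18 over 13, 0.00997% for day 24 over 18 and 0.0199% for day 24 over 13.

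In 4 comparisons, chosen for this after their values were seen, an alternative processing or set of libraries passed the threshold. STC1 in pregnancy ranged from 3.20 to 7.05 at attachment sites and from 2.31 to 6.59 at inter-sites over 12 alternatives, with adjusted p from 0.0137 to 0.214 and from 0.0411 to 0.539. S100G on day 24 over 18 ranged from 2.77 to 4.95 at attachment sites and from 3.64 to 4.79 at inter-sites over 13 alternatives, with adjusted p from 0.00885 to 0.215 and from 0.0404 to 0.306. Both lowest adjusted p-values for S100G come from 1 alternative, which leaves out 3 libraries including non-pregnant replicate 3 and was added after the levels of S100G had been seen. The difference at attachment sites was the same 3.36 there, since none of the 3 libraries belongs to those groups, so what differed was the estimated spread.

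**Figure D3:**
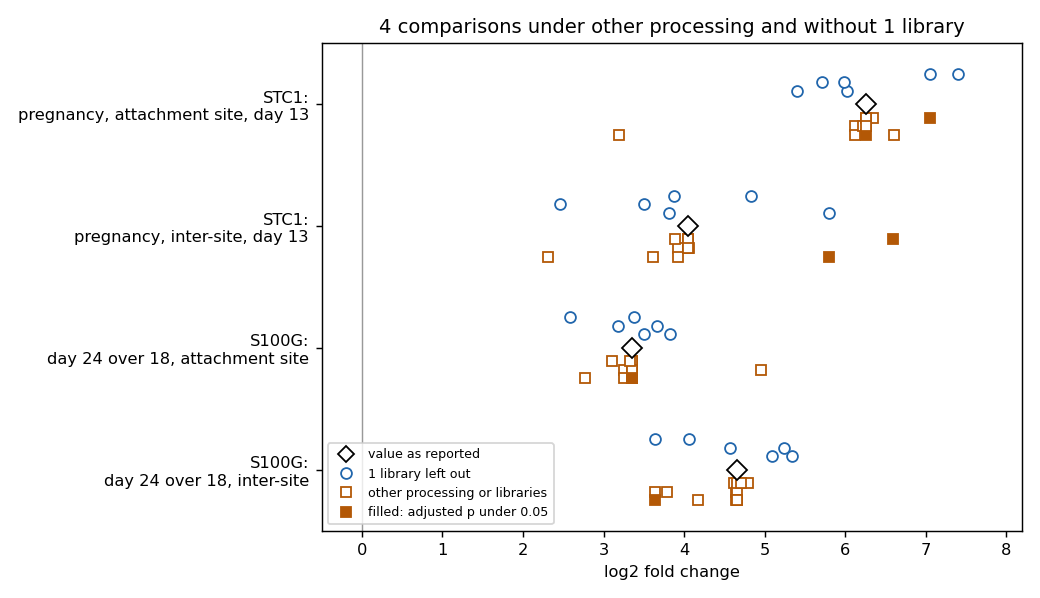
Log2 fold changes (horizontal axis) of 4 comparisons, named down the page: diamonds are the values as reported, circles leave out 1 library, squares are other processing or sets of libraries, and filled symbols have an adjusted p under 0.05. All values lie above 0, and the filled ones all leave out 2 or 3 libraries.

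The other genes of calcium handling were described from a list of 55, of which 23 had a named probe and 14 were tested. At attachment sites 3 of the 14 rose on day 24 against day 13, and 0 fell, where 8.34% of all probes were called higher; the median difference of the 14 was 0.61, against 0.01 over all probes. CALR, the calcium-binding chaperone calreticulin of the endoplasmic reticulum, rose by 1.29 (SE 0.26, limma adjusted p = 0.00427), with means of 2.94 on day 24 and 1.65 on day 13. PTHLH, the hormone that drives calcium transport in placenta and mammary gland, rose by 3.21 (SE 0.86, limma adjusted p = 0.0191), with means of 1.69 on day 24 and -1.53 on day 13. RAMP1, a partner of the calcitonin-receptor-like receptor, rose by 0.88 (SE 0.25, limma adjusted p = 0.0232). At inter-sites the same comparison of days gave similar differences, 1.045 for CALR, 3.00 for PTHLH and 0.991 for RAMP1. There none of the 3 was called (limma adjusted p from 0.0949 to 0.137).

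In pregnancy at attachment sites 1 of the 14 was called, against 1.78% of all probes. CALCB, a calcitonin gene-related peptide that widens blood vessels, fell by 2.76 (log2 fold change -2.76, SE 0.63, limma adjusted p = 0.0383), with means of -2.69 in attachment sites of day 13 and 0.07 in non-pregnant endometrium. No gene of the list was called by limma in the other 10 comparisons; over the 12 comparisons, 28 of 168 tests of these genes (16.7%, against 14.8% over all probes) had an unadjusted p under 0.05 and 4 were called. ATP2B1, the plasma membrane pump that extrudes calcium, had group means between 1.59 and 2.34 and was called in none. CALB1, the larger calbindin, was well above background on 4 of 21 arrays, the vitamin D receptor VDR on 3 and STC2, the paralogue of STC1, on 1, so none of them was tested. The epithelial calcium channel TRPV6 was not analysed here.

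Of 17 other S100 genes listed, 7 had a named probe and all 7 were tested. S100A12, a calcium-binding protein of granulocytes, rose on day 24 against day 18 at attachment sites by 3.52 (SE 1.004, limma adjusted p = 0.0496), with means of 1.64 on day 24 and -1.88 on day 18. This is 1 of 7 genes, where 5.62% of all probes were called. At inter-sites the same S100A12 difference was also 3.52 (SE 1.004, limma adjusted p = 0.130) and was not called. No other S100 gene was called by limma in any of the 12 comparisons, in which 20 of the 84 tests of the list (23.8%, against 14.8% over all probes) had an unadjusted p under 0.05. S100A14, a member of the family found in epithelium, had means at attachment sites of 4.39 on day 13, 2.50 on day 18 and 4.12 on day 24, and was not called. Between days 13 and 18 at attachment sites, 5 of the 7 were lower on day 18 and 2 (S100A6 and S100A11) were higher, with 0 called.

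Genes of pregnancy and steroid response were read beside the members, from a list of 8, of which 6 had a named probe and 5 were tested. SPP1, the secreted adhesion protein osteopontin, rose at attachment sites by 5.05 on day 18 against day 13 (limma adjusted p = 0.00984) and by 7.08 on day 24 against day 13 (limma adjusted p = 7.14e-05), and at inter-sites by 5.28 on day 24 against day 13 (limma adjusted p = 0.0131). AKR1B1, an enzyme of prostaglandin synthesis, rose at attachment sites by 3.31 on day 24 against day 18 (limma adjusted p = 0.00525) and by 4.002 on day 24 against day 13 (limma adjusted p = 0.000559). At inter-sites these AKR1B1 differences were 1.70 and 1.50 (limma adjusted p = 0.188 and 0.247) and were not called. SPP1 on day 18 against day 13 was 2.19 higher there (limma adjusted p = 0.790), also not called. PGR fell by 2.09 in pregnancy at attachment sites (log2 fold change -2.09, limma adjusted p = 0.0166) and by 1.77 at inter-sites (log2 fold change -1.77, limma adjusted p = 0.0424). ESR1 differed by -1.54 and -0.95 there (limma adjusted p = 0.0603 and 0.240), and ESR1 and LPAR3 were called in no comparison. Over all probes, pregnancy called 1.78% at attachment sites and 0.452% at inter-sites. The days called 1.8% (18 over 13), 5.62% (24 over 18) and 15.7% (24 over 13) at attachment sites. At inter-sites day 24 over 13 called 0.246%. The calls of SPP1, AKR1B1 and PGR were made on the same arrays as the comparisons in which S100G and STC1 were not called. Both members had wider spread than PGR within groups.

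The genes whose pattern was most like each member were taken from 2008 named genes by Pearson's r over the 21 arrays, which share group structure and array quality. For S100G they were ODF2 (r = 0.890), a protein of centrioles and sperm tails, LOC100155249 (r = 0.886), KRT8 (r = 0.819), a keratin of simple epithelium, SLC25A6 (r = 0.795), a mitochondrial ADP/ATP carrier, and FRRS1 (r = 0.791), a ferric reductase. All 5 had their lowest group means on day 18, a likeness that the choice by r over the same arrays favours. KRT8 stood at 4.55 in attachment sites and 5.06 in inter-sites of day 18, and between 5.44 and 6.15 in the other 5 groups.

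For STC1 the genes reported here were GNMT (r = 0.927), a methyltransferase of glycine, KLF5 (r = 0.905), a transcription factor of epithelium, INSIG2 (r = 0.883), a regulator of sterol synthesis, and AGPAT3 (r = 0.859), an enzyme of phospholipid synthesis. All 4 had their highest group mean at attachment sites of day 13 and their lowest in non-pregnant endometrium. The choice by r over the same arrays favours this likeness too. KLF5 stood at 1.56 in attachment sites of day 13 and at -1.46 in non-pregnant endometrium. S100G and STC1 themselves correlated at r = -0.022 over the 21 arrays.

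**Figure D4:**
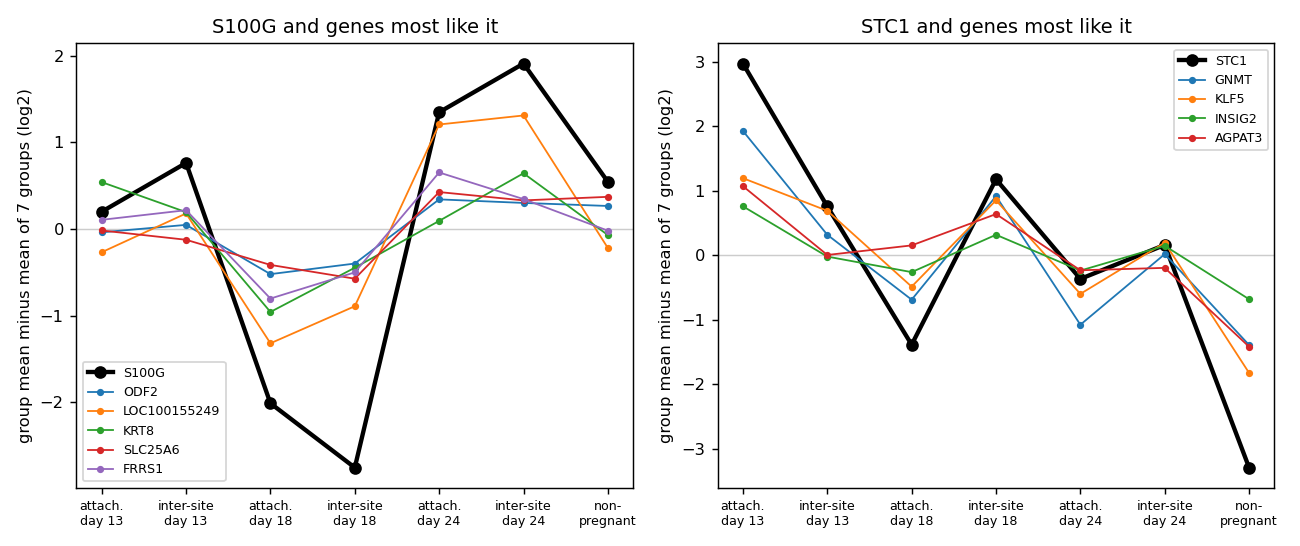
Group means (n = 3 arrays) minus the mean of the 7 groups, on the log2 scale, for S100G (left, black) and STC1 (right, black) with the named genes of highest Pearson's r to each (coloured lines, 5 for S100G and 4 for STC1). The S100G genes are lowest on day 18, and the STC1 genes are highest at attachment sites of day 13 and lowest in non-pregnant endometrium.

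Markers of cell types in the samples moved with the genes in some comparisons and not in others. Of 10 epithelium markers, 6 had a named probe, all well above background, and their summed level was 6.09 to 6.996 in attachment sites and 6.48 to 7.15 in inter-sites of day 18. On day 13 it was 7.44 to 7.74 in attachment sites and 6.63 to 7.46 in inter-sites. On day 24 it was 7.26 to 7.49 in attachment sites and 7.42 to 7.53 in inter-sites, so every day 18 array lay below every day 24 array. The day 18 arrays did not lie below those of day 13 at inter-sites. There the 6 markers differed by -0.64 (KRT8) to 0.52 (CLDN4), with a median of 0.05, and S100G differed by -3.51. At attachment sites the median difference of the 6 markers between day 18 and day 13 was -1.10. In non-pregnant endometrium the epithelium sum was 6.51, 6.70 and 7.63, with the highest value on replicate 3, which also had the highest S100G of the group. The part of the epithelium markers in the S100G differences was not tested. KRT8 is both an epithelium marker and a gene most like S100G.

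Of 7 smooth muscle markers, 3 had a named probe (ACTA2, DES and CNN1), and their summed level was 10.6 in attachment day 18 replicate 2 and 10.3, 10.2 and 5.12 in the non-pregnant arrays. The 3 arrays on which STC1 was not well above background were the 3 with the highest smooth muscle sum. Next in sum were inter-site day 24 replicate 2 (9.31), attachment day 13 replicate 2 (9.27) and inter-site day 18 replicate 3 (9.21). They had STC1 at -3.03, 1.69 and -0.76. Inter-site day 13 replicate 1, with a sum of 5.29, had STC1 at -4.59. Non-pregnant replicate 3, with a sum of 5.12, had STC1 at -3.55, the highest of its group and below all attachment sites of day 13. The part of muscle tissue in the STC1 differences was not tested. Trophoblast markers (3 of 8 measured: GATA2, GATA3 and TFAP2C) summed to 3.97 to 4.93 in attachment sites and 3.15 to 4.26 in inter-sites of day 24. In non-pregnant endometrium the sum was 3.00 to 3.14. GATA2 had group means between 2.62 and 3.06, with 2.81 in non-pregnant endometrium, where it made up most of the sum. The part of these markers was not tested.

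**Figure D5:**
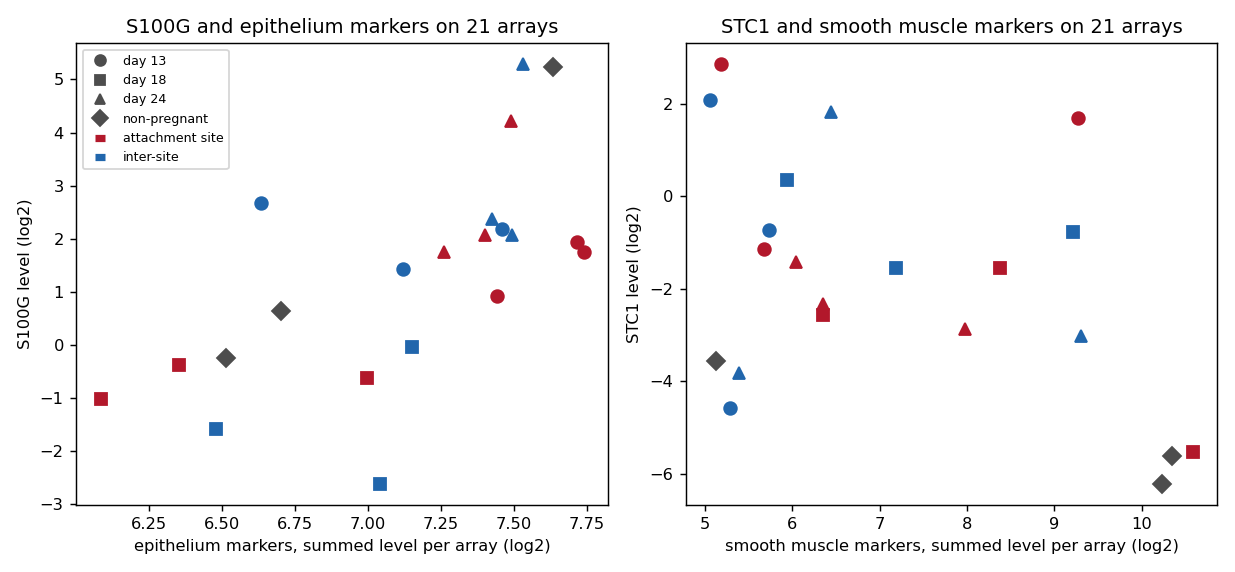
S100G level against the summed level of epithelium markers (left) and STC1 level against that of smooth muscle markers (right), 1 point per array, both axes log2 relative to the array's 75th percentile. Day 18 arrays (squares) are below 0 for S100G, with epithelium sums from 6.09 to 7.15, and the 3 arrays with the highest smooth muscle sum lie at the lower right for STC1.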

How the data were processed

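Spot intensities in the deposited scanner files came from Agilent Feature Extraction, which per the file headers (10.7.3.1; 10.7 per the submitters' processing notes) had subtracted the background and detrended each array. The authors' deposited value table was on the log2 scale and served only as an alternative. Its columns of inter-site day 24 replicates 2 and 3 each correlated best with the scanner file of the other (r = 0.960 with their own). The replicate numbers given here are those of the scanner files. From 45220 spots, control and outlier-flagged spots were left out and repeated probes averaged, which left 43603 probes. Levels are log2 processed signals from which the 75th percentile of the same array (354 to 854) was subtracted. Testing needed a probe well above background on each of the 3 arrays of some group, which kept 30089. Pig RefSeq accessions, matched without version, gave gene names. The fit in limma 3.58.1 under R 4.3.3 had a mean for each of 7 groups and used all 21 arrays, with Benjamini-Hochberg adjustment over all tested probes in each comparison, and was tested on simulated data. The brighter probe stood for S100G. Look-alike genes were the 5 of highest Pearson's r to each member over 21 arrays, of which 1 for STC1 is not reported here; TRPV6, CALB1, ATP2B1, STC2, VDR and called genes were named from the lists, with S100A14 and a choice of markers named after their values were seen. The members, lists and libraries that stand apart were chosen with earlier results of these data known. Alternatives were other background correction (normexp on the median signals, since no mean signal was used here), normalization, filters, slide and replicate blocks, and left-out libraries. The number of arrays limits the precision, and p-values measure only the spread between these arrays, which the labels do not tie to single sows.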

Additional observations from a re-analysis of the deposited data

How the results depend on the processing

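No difference that was called as reported was lost, because none was called; over all alternatives and left-out libraries 609 values of S100G and STC1 stayed on their side of the threshold and 6 passed it. Without inter-site day 13 replicate 1 and inter-site day 24 replicate 3, chosen from earlier results of these data, STC1 in pregnancy passed with 6.26 at attachment sites and 5.80 at inter-sites. With non-pregnant replicate 3 also left out, an alternative chosen after seeing the data, it passed with 7.05 and 6.59, and S100G on day 24 over 18 passed with 3.36 at attachment sites and 3.64 at inter-sites. That was the only 1 of the 13 alternatives in which S100G passed, and its value at attachment sites did not move, so what differed was the estimated spread.

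Leaving out any 1 library changed no call, with ranges of 5.40 to 7.40 and 2.46 to 5.80 for STC1 in pregnancy at attachment sites and inter-sites, and of 2.59 to 3.82 and 3.64 to 5.35 for S100G on day 24 over 18. Whether replicate numbers pair the samples was not settled. Deviations from group means had a median r of 0.037 for the same number, above 0.1 in 24 of 63 pairs. Within a day, attachment against inter-site, the same number gave 0.099 and 4 of 9, against -0.048 and 3 of 18 for different numbers. The replicate block used the replicate number over all 7 groups, so it is not a block of sows. With it STC1 in pregnancy at attachment sites stayed at 6.26 (limma adjusted p = 0.0693). With slide as a fixed block the STC1 difference was 6.60 (limma adjusted p = 0.148). STC1 gave no value when only probes well above background on all 21 arrays were kept. A block of libraries that share on-off probe states was tried under 2 settings after the data were seen; neither gave usable sets, and no fit was made with it. Of the 5 genes most like S100G, 4 stayed among its first 5 by Spearman's rho and 4 without the 2 libraries.

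Counts of called probes moved by more than 1.5 times. Pregnancy called 536 probes at attachment sites and 136 at inter-sites, with 0 to 1971 and 0 to 1161 over the alternatives and 0 to 657 and 0 to 612 with 1 library left out. At attachment sites the days called 541 (18 over 13), 1691 (24 over 18) and 4713 (24 over 13), with 12 to 1558, 214 to 2659 and 1084 to 5817, and 9 to 3730, 261 to 1618 and 2094 to 3753 with 1 library left out. At inter-sites they called 2, 43 and 74, with 0 to 5, 1 to 196 and 7 to 170, and 0 to 6, 6 to 70 and 0 to 225. Sites differed at 84 probes on day 24 (18 to 111, and 12 to 309 with 1 library left out) and 1 over the mean of days (0 to 2, and 0 to 67).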
